A study of Mus musculus with 2 samples.

Results

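Malat1, Neat1, Meg3, Miat, Rian, Mirg, Snhg11, Snhg14 and Kcnq1ot1 are long noncoding RNAs that are known to be made in the nucleus and largely kept there. They were taken by symbol from the 32285 genes of the count tables, and all 9 were present. To compare them between brains with and without subarachnoid haemorrhage (SAH, bleeding onto the brain surface), their unique molecular identifiers (UMIs, counts of single captured molecules) were summed by class of nucleus in each library. Together they held 6.94% of the UMIs of the nuclei kept for analysis in the Normal library and 5.03% of those in the SAH library. Malat1 alone made up 5577738 of these 6704486 UMIs in Normal and 5482828 of 7055924 in SAH, so the totals mostly reflect Malat1.

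The series holds 2 libraries of single nuclei from male C57BL/6J mice, of 6 to 8 weeks in the labels and of another age in the methods of the study. The SAH library came from brains taken 12 h after a vessel was perforated from inside with a filament, and the Normal library from control brains, whose mice the labels call normal and the methods of the study call sham-operated, so whether they were operated on is not settled. Each library was a pool of tissue from 3 mice, cut between bregma 2.34 mm and -2.18 mm. The study gives the tissue as the hemisphere on the side of the bleeding, which leaves the side in control mice unnamed. With 1 library per condition no test between conditions was possible, and every interval below is a 95% interval for counting error only, which holds nothing of the variation between mice, pools or library preparations.

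Many transcripts leave the nucleus soon after splicing, but these RNAs act, as far as is known, where they are made. Malat1 gathers in nuclear speckles, bodies rich in splicing factors, and the long isoform of Neat1 is the scaffold on which paraspeckle proteins assemble. Meg3, Rian and Mirg are transcribed in one direction from the maternal copy of the imprinted Dlk1-Dio3 region and carry small RNAs in their introns. Snhg14 is read from the paternal chromosome through a long run of small nucleolar RNA genes and, in neurons, into the opposite strand of Ube3a, whereas Kcnq1ot1 is a paternally expressed antisense transcript that silences its imprinted neighbourhood in cis. Miat forms a nuclear compartment in neurons. Snhg11 is the host of small nucleolar RNAs and abundant in neurons.

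In the GENCODE annotation of GRCm38 the shortest of the 9 genes was Malat1, 6.983 kb covered by exon throughout at chr19:5795690-5802672 on the minus strand. Neat1, with 20.8 kb, lay 22.0 kb from it on the same strand at chr19:5824708-5845478. Meg3 (chr12:109541001-109571726), Rian (chr12:109603940-109661716) and Mirg (chr12:109729764-109749460) followed each other on the plus strand with gaps of 32.2 and 68.0 kb. Rian enclosed 13 annotated small nucleolar RNAs and Mirg 14 microRNA hairpins. Kcnq1ot1 (chr7:143203458-143296549, minus strand, 93.1 kb, no intron) lay wholly inside Kcnq1, and Snhg14 (chr7:59307924-59975759, minus strand, 667.8 kb) enclosed 208 small nucleolar RNAs. Miat lay at chr5:112213228-112229395 on the minus strand. Snhg11 lay at chr2:158375638-158386145 on the plus strand, where the annotation types it as protein coding.

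The libraries were primed on runs of A, so the 3′ ends of the transcripts bear on how they are captured. The ends of Malat1 and of long Neat1 are known to be cut from a tRNA-like structure rather than polyadenylated, and the following stretches, read 5′ to 3′ from GENCODE transcripts of GRCm38, are shown for what they share and for the polyadenylation signals in the others. Capitals mark the run AAAAAGCAAAA in the first pair and the hexamer AATAAA in the others.
Malat1 (chr19:5795982-5796081, minus strand): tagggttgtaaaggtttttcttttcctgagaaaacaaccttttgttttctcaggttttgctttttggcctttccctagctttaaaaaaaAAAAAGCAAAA
Neat1, long isoform (chr19:5824708-5824807, minus strand): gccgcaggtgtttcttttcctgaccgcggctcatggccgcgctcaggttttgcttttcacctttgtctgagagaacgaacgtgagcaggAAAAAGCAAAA
Neat1, short isoform (chr19:5842307-5842406, minus strand): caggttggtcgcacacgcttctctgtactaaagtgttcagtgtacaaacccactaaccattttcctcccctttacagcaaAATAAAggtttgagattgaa
Kcnq1ot1 (chr7:143203458-143203557, minus strand): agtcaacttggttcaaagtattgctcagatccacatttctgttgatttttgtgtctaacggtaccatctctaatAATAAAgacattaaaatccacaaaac
Meg3 (chr12:109571627-109571726, plus strand): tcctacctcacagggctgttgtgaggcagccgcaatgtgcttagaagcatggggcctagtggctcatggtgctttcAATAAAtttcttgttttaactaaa

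The long isoform of Neat1 ended on AAAAAGCAAAA, and in Malat1 the same 11 letters stood 292 bases before the annotated end of the transcript. Searched on the transcript strand only, this run was found in the last 100 bases of 64 of 131058 annotated transcripts, or 0.0488%. AATAAA stood in the same window of 30.3% of all transcripts and of 25.8% of the 28860 long noncoding ones. Kcnq1ot1 held 30 runs of at least 8 A over its 93092 bases, Malat1 held 1 and Neat1 held none. How much of each RNA was primed at such inner runs was not tested.

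The Normal library held 12204 nuclei with 114970719 UMIs and the SAH library 18209 nuclei with 172604358 UMIs. After limits on nuclei and removal of doublets, 10955 and 15536 nuclei were kept, and 53 of their barcodes occurred in both libraries. Nuclei were put in classes one by one from the share of UMIs of marker genes, without any of the 9 noncoding RNAs. This gave 3990 Normal and 5277 SAH excitatory neuron-like nuclei, 1735 and 1776 inhibitory neuron-like, 1739 and 3484 oligodendrocyte-like, and 984 and 1227 microglia-like nuclei. Nuclei with no class made up 22.0% of those kept in Normal and 23.5% in SAH. Median depth was higher in SAH in each class, from 1361 against 1782 UMIs in microglia-like to 11224.5 against 12765 in excitatory neuron-like nuclei. The markers that define the glial classes were themselves lower in SAH, with a median of 319 against 172.8 UMIs per 10000 in oligodendrocyte-like and of 199 against 120 in microglia-like nuclei.

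Where each RNA was found came first. Levels are in CPM, the UMIs of a gene per 1000000 UMIs of a class, and a level per kb divides this by the length of the gene. In excitatory neuron-like nuclei of the Normal library the level per kb ran from 8968 for Malat1, through 281 for Snhg11, 149 for Meg3, 13.8 for Miat, 11.1 for Rian, 9.10 for Kcnq1ot1, 5.44 for Mirg and 1.79 for Snhg14, to 0.149 for Neat1. Since only 3′ ends and inner A runs are counted, this order is rough, and with 1 library there is no spread to tell near neighbours such as Miat, Rian and Kcnq1ot1 apart.

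**Figure D1:**
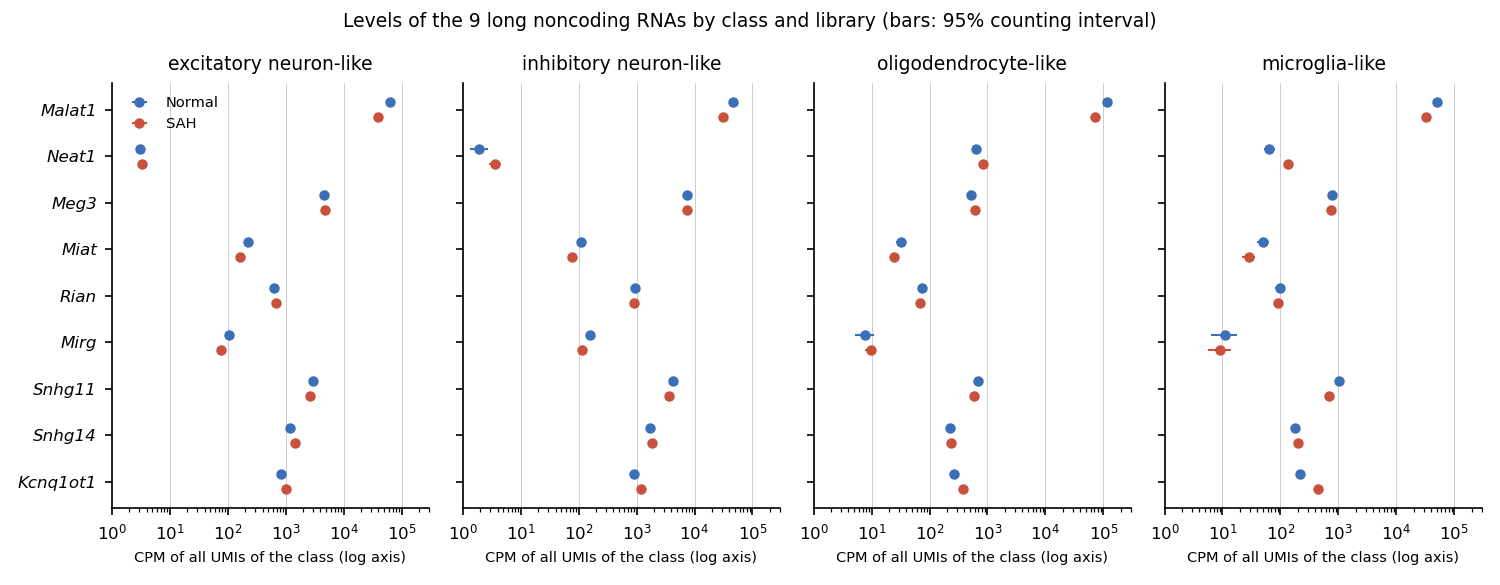
Levels of the 9 RNAs in CPM of all UMIs of the class (horizontal log axis) in the Normal (blue) and SAH (red) library for each of the 4 classes, with 95% counting intervals. Malat1 sits above all others in each class and lies lower in SAH, Neat1 is below 4 CPM in neurons and above 600 CPM in oligodendrocyte-like nuclei, and the other 7 are highest in neurons.

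Malat1 was abundant in all 4 classes and among them highest in oligodendrocyte-like nuclei, at 113179 CPM in Normal and 71629 CPM in SAH. It stood at 62627 and 39870 CPM in excitatory neuron-like nuclei, at 49955 and 32294 CPM in microglia-like nuclei, and at 46868 and 31281 CPM in inhibitory neuron-like nuclei. The order of the classes was the same in both libraries, and the lowest pair, microglia-like and inhibitory neuron-like, lay close together. Malat1 was detected in each nucleus of these classes, and 9 Normal vascular and leptomeningeal-like nuclei carried still more (144985 CPM).

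Neat1 had the opposite reach, since 83.0% of its UMIs in Normal and 79.7% in SAH came from oligodendrocyte-like nuclei, which made up 15.9% and 22.4% of the nuclei kept. Its level there was 634 CPM (609 to 660) in Normal and 838 CPM in SAH. In microglia-like nuclei it was 64.5 CPM (93 UMIs) and 136 CPM (314 UMIs). In excitatory neuron-like nuclei it was 3.10 and 3.30 CPM, and in inhibitory neuron-like nuclei 1.93 and 3.61 CPM. Nuclei with no class had 5.32 CPM (113 UMIs) in Normal and 28.9 CPM (1043 UMIs) in SAH. A cluster of the SAH library led by Il33 and Rhoj, described below, held 1929 Neat1 UMIs. Of these, 1363 lay in its oligodendrocyte-like nuclei. How many of the others lay in nuclei with no class was not tested, so nothing about neurons is read from this value.

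Free RNA from broken cells gives each droplet some UMIs of abundant transcripts, so the neuronal level of Neat1 was set beside that of myelin transcripts. As a share of its level in oligodendrocyte-like nuclei, Neat1 stood in excitatory neuron-like nuclei at 0.490% (0.418 to 0.571) in Normal and 0.394% in SAH. Mobp, a gene of myelin, stood there at 0.334% and 0.432%, and Mal, another myelin gene, at 0.343% and 0.492%. In inhibitory neuron-like nuclei Neat1 stood at 0.304% and 0.431%, where Mobp stood at 0.268% and 0.347% and Mal at 0.442% and 0.622%. Neat1 was thus within or below the range of these transcripts in 3 of the 4 neuronal values, so that no expression in neurons is read from them, and above it in excitatory neuron-like nuclei of the Normal library. The part of free RNA in the neuronal values was not tested. Without removal of doublets the log2 ratio of SAH over Normal in that class went from 0.09 to 0.87. Microglia-like nuclei differed in this respect, with Neat1 at 10.2% (8.21 to 12.5) and 16.3% (14.5 to 18.2) of the oligodendrocyte level against 1.72% and 1.42% for Mobp and 2.24% and 3.43% for Mal.

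The 7 other RNAs were higher in the neuron classes than in oligodendrocyte-like and microglia-like nuclei. Meg3 was at 7396 CPM in inhibitory and 4569 CPM in excitatory neuron-like nuclei of the Normal library, and at 787 and 527 CPM in microglia-like and oligodendrocyte-like nuclei. Snhg11 was likewise higher in inhibitory (4298 CPM) than in excitatory neuron-like nuclei (2948 CPM), as were Rian (933 against 640 CPM), Mirg (157 against 107 CPM) and Snhg14 (1683 against 1197 CPM). Kcnq1ot1 differed little between the neuron classes, at 896 against 847 CPM. Miat alone had the reverse order, with 224 CPM in excitatory and 108 CPM in inhibitory neuron-like nuclei, and the SAH library kept the order of the neuron classes for all 7. In the rare vascular and leptomeningeal-like nuclei Kcnq1ot1 was close to its neuronal levels, at 981 CPM (16 UMIs) in Normal and 994 CPM (18 UMIs) in SAH. Oligodendrocyte precursor-like nuclei had 453 CPM (27 UMIs) and 672 CPM (79 UMIs) of it, and border macrophage-like nuclei 78.6 CPM (2 UMIs) and 522 CPM (38 UMIs).

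What oligodendrocyte-like and microglia-like nuclei of the Normal library held of these 7 RNAs lay within the full range of transcripts that glia should lack. For some of the 7 this rested on the highest of those transcripts alone. Of 10 transcripts that define neurons, such as Snap25 and Rbfox3, oligodendrocyte-like nuclei of the Normal library carried 5.24% to 46.5% of the excitatory level (median 7.64%), and microglia-like nuclei 7.40% to 80.8% (median 11.7%). Nrgn was the highest of these 10 in both, and Snap25 came next with 15.2% and 22.0%. Mirg stood at 7.23% in oligodendrocyte-like and 10.3% in microglia-like nuclei, Meg3 at 11.5% and 17.2%, and Rian at 11.8% and 15.2%, all of them below Snap25. Snhg11 at 23.6% and 34.3% and Kcnq1ot1 at 30.8% and 25.3% were above Snap25, and so above all of the 10 but Nrgn. Miat (14.2% and 22.3%) and Snhg14 (18.8% and 15.1%) were close to Snap25. All 7 were below Nrgn in this library. The part of free RNA in the glial levels of the 7 RNAs was not tested, and their glial differences between libraries carry that limit.

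Among subclasses of neurons, named by further markers, Meg3 was highest in Sst or Pvalb interneuron-like nuclei, at 8051 CPM in Normal and 8223 CPM in SAH. It was lowest in layer 6 cortical-like nuclei, with 4239 and 4209 CPM. Miat was lowest in interneurons of the first kind (80.3 and 61.1 CPM) and in striatal spiny-like nuclei (80.9 and 37.3 CPM), and highest in upper layer cortical-like nuclei (243 and 177 CPM). When each library was clustered on its own, without these 9 genes among the features, clusters led by Eya4 had the lowest Miat of the neuronal clusters, at 37.5 CPM in Normal and 32.4 CPM in SAH.

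Nuclei rich in Meg3 were also richer in its neighbours Rian and Mirg and in Snhg11, Snhg14 and Miat from other chromosomes. Excitatory neuron-like nuclei of the Normal library were split into 5 equal bins by their share of Meg3. From the lowest to the highest bin Rian went from 474 to 861 CPM, Mirg from 82.2 to 137 CPM and Snhg11 from 2138 to 3933 CPM. Snhg14 went from 1038 to 1442 CPM and Miat from 182 to 248 CPM. Malat1 went from 61681 to 57812 CPM and Kcnq1ot1 from 927 to 785 CPM. The same split of SAH nuclei gave Rian 488 and 909 CPM, Mirg 59.2 and 101 CPM and Snhg11 1895 and 3378 CPM. Snhg14 had 1199 and 1711 CPM there and Miat 132 and 189 CPM. Malat1, however, had 39813 and 40075 CPM and Kcnq1ot1 996 and 1027 CPM. The direction of Malat1 and Kcnq1ot1 was thus not shared by the libraries. Meg3 itself differed by construction, and median depth of the lowest and highest bin was 11172 and 9531.5 UMIs in Normal and 11916.5 and 12959 in SAH, so the direction of depth was not shared. Whether neuron subtypes take unequal parts of these bins was not tested.

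In each library 1 cluster led by Glis3 and Maml2 stood apart, with 176 nuclei in Normal and 303 in SAH, of which 77.3% and 92.7% had no class, and it is left unnamed. Meg3 was at 1292 and 1193 CPM there, Rian at 165 and 199 CPM, Mirg at 18.2 and 31.3 CPM and Snhg11 at 708 and 433 CPM. Each of these is below every cluster whose nuclei were mainly excitatory or inhibitory neuron-like in its library, where Meg3 was at least 3717 CPM in Normal and 3427 CPM in SAH. Miat (246 and 159 CPM) and Kcnq1ot1 (788 and 1047 CPM) were within the range of those clusters. Malat1 was within it in Normal (6.32% of UMIs), but in SAH its 5.30% was above the highest of them (5.10%).

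The comparison of SAH with Normal asked which of the 9 differed 12 h after the bleeding. Among excitatory neuron-like nuclei all 9 reached 200 UMIs over both libraries, the minimum for a gene to be counted. Malat1 alone passed 1.5-fold, and it was lower in SAH. Of all 14103 genes with that many UMIs, 17.2% were at least 1.5-fold lower and 10.2% at least 1.5-fold higher. Among inhibitory neuron-like nuclei 8 of the 9 were counted and none passed in either direction, where 17.3% of all genes were lower and 5.66% higher. In oligodendrocyte-like nuclei 8 were counted and only Malat1 passed, as lower, beside 14.3% lower and 13.1% higher of all genes. In microglia-like nuclei 7 were counted, Neat1 and Kcnq1ot1 passed as higher and Malat1 as lower, beside 15.5% higher and 9.89% lower of all genes. Counts of 0, 1 or 2 of 7 to 9 are near these backgrounds, so the members are described one by one.

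A background shift has to be taken off first. The median gene stood at a log2 ratio of SAH over Normal of -0.16 in excitatory and -0.19 in inhibitory neuron-like nuclei, against -0.02 in oligodendrocyte-like and 0.07 in microglia-like nuclei. The shift went with gene length. In the 4 classes, in the order excitatory, inhibitory, oligodendrocyte-like and microglia-like, genes shorter than 10 kb had median log2 ratios of -0.44, -0.59, -0.60 and -0.63. Genes of 100 kb or more had medians of 0.06, 0.07, 0.20 and 0.21. Below, a ratio relative to genes of like length is the log2 ratio less the median over the 500 genes whose lengths are closest.

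**Figure D2:**
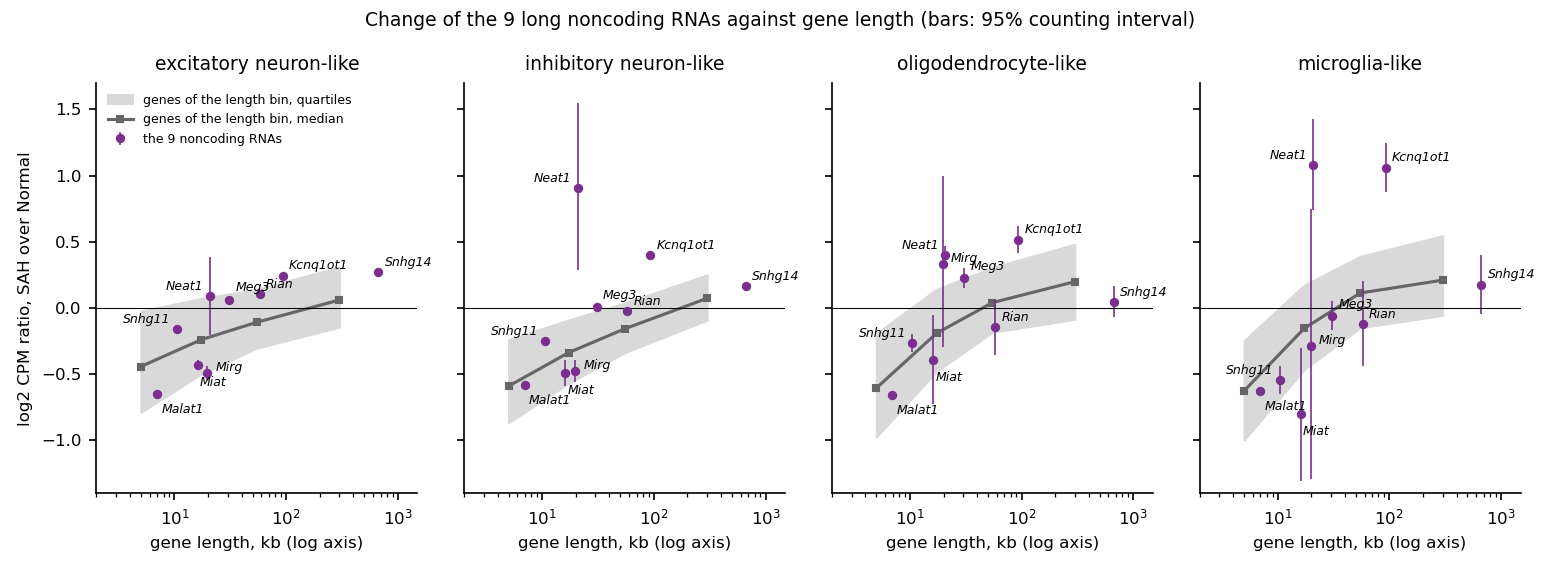
Log2 CPM ratio of SAH over Normal (vertical axis) against gene length in kb (horizontal log axis) for the 9 RNAs (points with 95% counting intervals) in each class. The line and band give the median and quartiles of all genes with at least 200 UMIs in 4 length bins, drawn at nominal positions. Malat1 follows the short genes in each panel, whereas Kcnq1ot1 lies above the median of its bin in each.

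Malat1, the speckle RNA, went from 62627 to 39870 CPM in excitatory neuron-like nuclei, a log2 ratio of -0.65, or 1.57-fold lower in SAH. The log2 ratio was -0.58 in inhibitory neuron-like, -0.66 in oligodendrocyte-like and -0.63 in microglia-like nuclei, so that the 4 classes lay within 0.08 of each other. It was lower in all 6 neuron subclasses too, from -0.40 in striatal spiny-like to -0.73 in layer 6 cortical-like nuclei. Relative to genes of like length it was -0.23, -0.07, -0.17 and -0.24 in the 4 classes, with which it passed 1.5-fold in none of them. In microglia-like nuclei only 264 counted genes were shorter than 10 kb, fewer than the set of like length holds. The set in that class thus took in longer genes. The 264 short genes had a median of -0.63, the same as Malat1 there. The value of -0.24 is therefore not read as a difference from short genes. Under 10 kb, 39.2% of the genes of excitatory neuron-like nuclei and 50.4% to 51.9% of those of the other classes were at least 1.5-fold lower, so a difference of this size was common among genes as short as Malat1.

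The lower level of Malat1 was spread over the nuclei. The median nucleus carried 6.06% of its UMIs as Malat1 in Normal and 3.92% in SAH among excitatory neuron-like, 4.26% and 2.95% among inhibitory neuron-like, 10.8% and 6.74% among oligodendrocyte-like, and 5.05% and 3.23% among microglia-like nuclei. Of the SAH nuclei, 91.6%, 84.4%, 92.5% and 96.1% in these classes lay below the median Normal nucleus. The distributions still overlapped. Nuclei were also split into 5 bins of depth set over both libraries, and each bin of each class had less Malat1 in SAH, with log2 ratios from -0.46 to -0.71. Which part lay in the mice, in the pool or in the preparation of the library cannot be told apart.

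**Figure D3:**
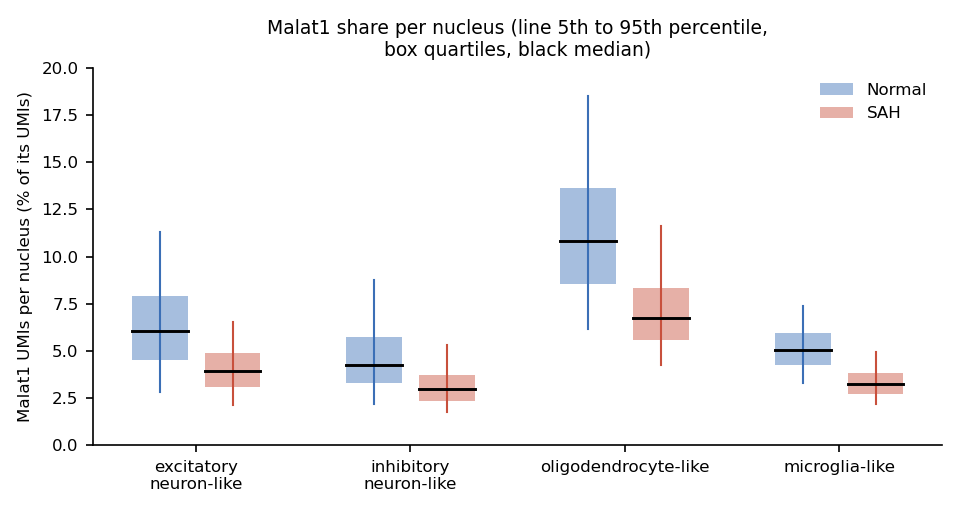
Share of each nucleus's UMIs that were Malat1 (vertical axis, percent) by class, in Normal (blue) and SAH (red). The line spans the 5th to 95th percentile, the box the quartiles and the black bar the median. The SAH median is lower in each class, from 3.92% against 6.06% in excitatory neuron-like to 6.74% against 10.8% in oligodendrocyte-like nuclei, and the ranges overlap.

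Neat1, its long and short isoforms counted together, was higher in SAH in both glial classes. Only the long isoform is the paraspeckle scaffold, and which isoform differed was not tested. In oligodendrocyte-like nuclei it went from 634 to 838 CPM, a log2 ratio of 0.40 (0.33 to 0.47) and 0.54 relative to genes of like length. In microglia-like nuclei it went from 64.5 to 136 CPM, a log2 ratio of 1.08 (0.74 to 1.43) and 1.22 relative to genes of like length. Its neighbour Malat1 had log2 ratios of -0.66 and -0.63 in the same nuclei. Genes shorter than 10 kb had medians of -0.60 and -0.63 there. The ratios of the adjacent genes thus differed in sign, but that of Malat1 is not read as a difference from short genes.

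The share of nuclei with a Neat1 UMI was 61.2% in Normal and 69.4% in SAH among oligodendrocyte-like nuclei. With each nucleus thinned to 1000 UMIs, which left out 155 and 134 nuclei, the shares were 46.1% and 49.2%. Among microglia-like nuclei the shares were 8.43% and 18.8%, and 5.16% and 12.0% after thinning, which left out 248 and 60. Among excitatory neuron-like nuclei the shares were 3.61% and 4.13% at median depths of 11224.5 and 12765 UMIs, and 0.276% and 0.360% after thinning. The microglial shares stood well above that. The myelin transcript Mobp was at 22.2 CPM in Normal and 24.3 CPM in SAH in microglia-like nuclei, and Mal at 70.7 and 42.9 CPM.

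Within oligodendrocyte-like nuclei the difference in Neat1 was uneven. Nuclei with at least 5 Neat1 UMIs numbered 97 of 1739 in Normal and 419 of 3484 in SAH, and the highest count in 1 nucleus was 11 against 42. The clusters led by Ptgds, which held the most oligodendrocyte-like nuclei in each library, had 656 CPM in Normal and 690 CPM in SAH. The clusters with Anln among their leading genes had 826 and 954 CPM. In a cluster of the SAH library led by Il33 and Rhoj, 297 of 337 nuclei were oligodendrocyte-like. These 297 had 1812 CPM (1717 to 1911), and the whole cluster had 2280 CPM. The 297 nuclei held 19.3% of the Neat1 UMIs of the class in SAH, and 36.4% of them had at least 5. Their Malat1 share was 7.23% of UMIs, against 7.20% in the Ptgds-led cluster of the same library. The lowest levels were 88.6 CPM in a small Normal cluster led by Pdgfra and 200.8 CPM in a small SAH cluster led by Opalin.

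Without the Il33-led cluster the log2 ratio of Neat1 in oligodendrocyte-like nuclei was 0.23, and without the lowest cluster of each library it was 0.32. Both of these were chosen after the values were seen. With classes from clusters, which take in all nuclei of the Il33-led cluster, the log2 ratio of Neat1 was 0.55. Across the 5 depth bins the log2 ratio ran from -0.05 in the shallowest to 0.92 in the deepest nuclei, where the Normal level was 455 CPM against 699 CPM or more in the other bins. The deepest Normal nuclei thus had less Neat1 than the rest, and the SAH nuclei showed no such drop. The 104 nuclei of the Pdgfra-led Normal cluster, at 88.6 CPM, had a median depth of 4058.5 UMIs. The 140 nuclei of the Opalin-led SAH cluster, at 200.8 CPM, had 4287.5 UMIs. Median depth in the Ptgds-led clusters was 1678 UMIs in Normal and 2037.5 in SAH. The part of such clusters in the deepest bins was not tested.

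**Figure D4:**
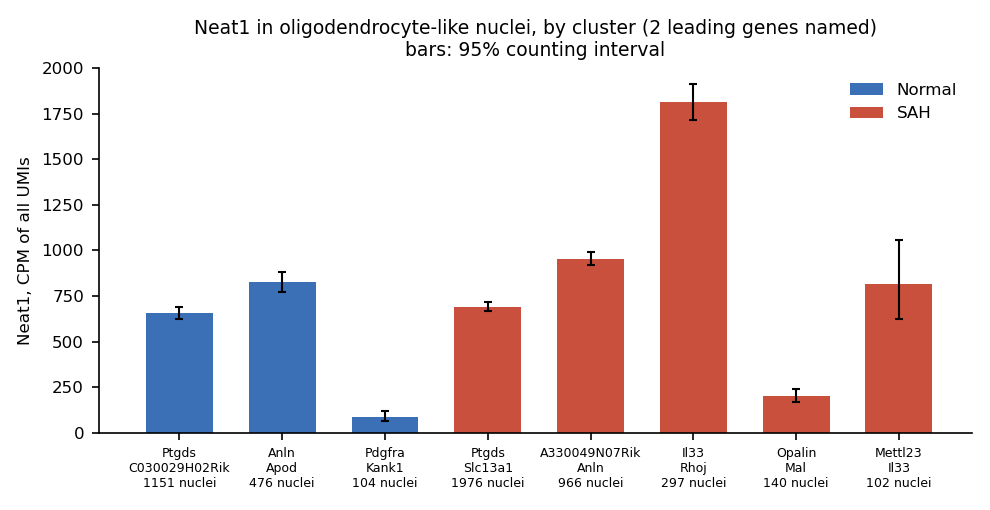
Neat1 in CPM of all UMIs (vertical axis from 0) in oligodendrocyte-like nuclei, by cluster of each library, with 95% counting intervals. Each bar carries the cluster's leading genes and its number of oligodendrocyte-like nuclei. Most clusters lie between 656 and 954 CPM, the Il33-led SAH cluster stands at 1812 CPM, and clusters led by Pdgfra and Opalin lie at 88.6 and 200.8 CPM.

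Rare classes had high Neat1 as well. Border macrophage-like nuclei, 20 in Normal and 33 in SAH, had 354 CPM (9 UMIs) and 851 CPM (62 UMIs), and vascular and leptomeningeal-like nuclei, 9 and 13, had 736 CPM (12 UMIs) and 939 CPM (17 UMIs). Oligodendrocyte precursor-like nuclei had 2 Neat1 UMIs in each library, in 17 and 28 nuclei. The intervals of these counts are wide, from 162 to 671 CPM for the Normal border macrophage-like nuclei and from 652 to 1091 CPM for those of SAH.

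Kcnq1ot1 was higher in SAH in each class. It went from 847 to 1004 CPM in excitatory neuron-like nuclei (log2 ratio 0.24), from 896 to 1180 CPM in inhibitory neuron-like (0.40), from 261 to 374 CPM in oligodendrocyte-like (0.52) and from 214 to 447 CPM in microglia-like nuclei (1.06, interval 0.88 to 1.25). Relative to genes of like length the values were 0.29, 0.48, 0.41 and 0.84. Of the 9 RNAs it was the only one with a positive ratio in each class under each of 13 alternative settings. The setting with no minimum of UMIs cannot change a ratio, here and in the tallies of 13 below. The 6 neuron subclasses gave log2 ratios from 0.26 to 0.42.

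The glial level of Kcnq1ot1 was set beside that of neuronal transcripts. As a share of the excitatory level it was 30.8% in Normal and 37.3% in SAH in oligodendrocyte-like nuclei, and 25.3% and 44.5% in microglia-like nuclei. The median of the 10 neuron transcripts was 7.64% and 7.30% in the former and 11.7% and 10.1% in the latter. Nrgn, the highest of the 10, stood at 46.5% and 37.2% in the former and at 80.8% and 45.5% in the latter, so that Kcnq1ot1 was not clearly above it in any, and the part of free RNA in its glial levels was not tested. With nuclei thinned to 1000 UMIs, the share with a Kcnq1ot1 UMI was 19.3% in Normal and 26.1% in SAH among oligodendrocyte-like nuclei, and 17.1% and 29.6% among microglia-like nuclei. Before thinning these shares were 31.1% and 43.1%, and 23.0% and 43.9%.

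The difference in Kcnq1ot1 depended on depth in neurons. Among excitatory neuron-like nuclei its level was higher at greater depth in both libraries, from 545 CPM in the shallowest bin to 1039 CPM in the deepest in Normal and from 887 to 1112 CPM in SAH. The log2 ratio therefore went from 0.70 in the shallowest to 0.10 in the deepest bin, and in inhibitory neuron-like nuclei it went from 0.70 to 0.25. Oligodendrocyte-like nuclei gave 1.07 in the shallowest bin and 0.31 to 0.59 in the others, and microglia-like nuclei gave 0.61 to 1.33 with no order by depth. All 20 ratios were above 0.

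**Figure D5:**
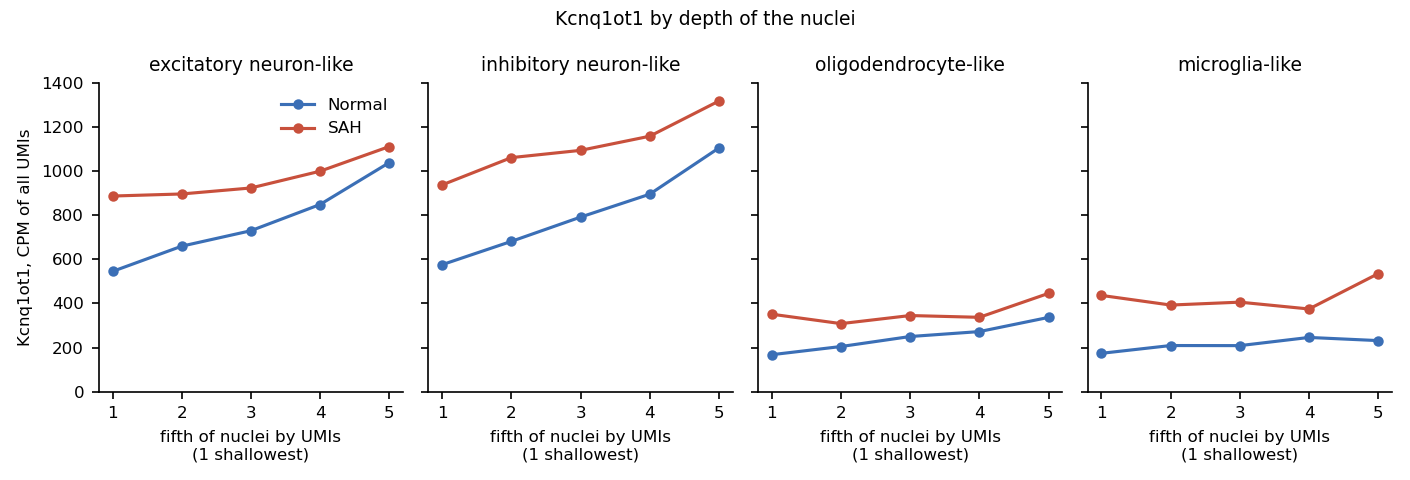
Kcnq1ot1 in CPM of all UMIs (vertical axis from 0) in 5 bins of nuclei ordered by UMIs, with limits set over both libraries, in Normal (blue) and SAH (red). SAH lies above Normal in each bin of each class, and in excitatory neuron-like nuclei the lines close from 545 against 887 CPM in the shallowest to 1039 against 1112 CPM in the deepest bin.

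Meg3 and Rian, the first and middle transcripts of the imprinted series, differed by at most 0.10 on the log2 scale between the libraries in the 2 neuron classes as a whole. Meg3 went from 4569 to 4775 CPM in excitatory neuron-like nuclei (log2 ratio 0.06) and from 7396 to 7440 CPM in inhibitory neuron-like nuclei (0.01, interval -0.00 to 0.02). Rian went from 640 to 688 CPM (0.10) and from 933 to 917 CPM (-0.03). In the inhibitory class Meg3 kept its sign in 5 and Rian in 9 of 13 alternative settings, and relative to genes of like length they stood at 0.22 and 0.11. Among neuron subclasses Meg3 was lower in SAH in striatal spiny-like nuclei, at 5594 against 4511 CPM (-0.31, interval -0.37 to -0.25). In inhibitory neuron-like nuclei the log2 ratio of Meg3 went from -0.28 in the shallowest to 0.10 in the deepest of the 5 depth bins. In oligodendrocyte-like nuclei Meg3 had a log2 ratio of 0.23 and Rian of -0.14 (-0.35 to 0.07), within the limit on free RNA given above.

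Mirg, the last of the series and host of a microRNA cluster, was lower in both neuron classes. It went from 107 to 76.4 CPM in excitatory (log2 ratio -0.49) and from 157 to 113 CPM in inhibitory neuron-like nuclei (-0.47), with ratios between -0.15 and -0.79 in the 6 neuron subclasses. Relative to genes of like length these were -0.28 and -0.16. Meg3, Rian and Mirg thus differed in unequal amounts although they are known to be read in the same direction from one chromosome. With 111 UMIs in oligodendrocyte-like and 37 in microglia-like nuclei, no direction for Mirg could be read in glia at this depth.

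Miat was lower in SAH in both neuron classes, going from 224 to 166 CPM in excitatory (log2 ratio -0.43) and from 108 to 76.8 CPM in inhibitory neuron-like nuclei (-0.49). The log2 ratio in excitatory neuron-like nuclei went from -0.82 in the shallowest to -0.16 in the deepest depth bin. In oligodendrocyte-like nuclei the ratio was -0.39 (-0.72 to -0.05), but it was -0.78 with nuclei thinned to 1000 and -0.00 (-0.71 to 0.74) with nuclei thinned to 500 UMIs, and 1 of the 5 depth bins was positive (0.52, interval -0.50 to 1.67), so its direction there is weak. In microglia-like nuclei it was -0.80 with 138 UMIs, under the minimum. Relative to genes of like length the 4 values were -0.16, -0.12, -0.15 and -0.61. Striatal spiny-like nuclei had the largest difference among neuron subclasses (-1.12, interval -1.77 to -0.50), with 83 Normal and 30 SAH UMIs.

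Snhg11 and Snhg14, both hosts of small nucleolar RNAs, differed in opposite directions in neurons. Snhg11 went from 2948 to 2638 CPM in excitatory (log2 ratio -0.16), from 4298 to 3608 CPM in inhibitory neuron-like (-0.25), from 695 to 579 CPM in oligodendrocyte-like (-0.26) and from 1011 to 693 CPM in microglia-like nuclei (-0.54), but relative to genes of like length the first 3 turned positive (0.13, 0.22 and 0.11) and only microglia-like nuclei stayed negative (-0.25). Snhg14 went from 1197 to 1442 CPM in excitatory (0.27) and from 1683 to 1885 CPM in inhibitory neuron-like nuclei (0.16), with 0.14 and -0.03 relative to genes of like length. In oligodendrocyte-like (0.05) and microglia-like nuclei (0.18) its intervals included 0. The direction of Snhg11 in neurons and of Snhg14 in inhibitory neuron-like nuclei is therefore no firmer than the trend with gene length, whereas Snhg14 in excitatory neuron-like nuclei was positive in all 13 alternative settings. Its excitatory subclasses were uneven, with log2 ratios of 0.40 in upper layer cortical-like and 0.22 in layer 6 cortical-like nuclei. Thalamic-like nuclei had 0.05, and -0.06 relative to genes of like length.

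The 3 genes that overlap a member on the opposite strand were higher in SAH in neurons. Ube3a, a ubiquitin ligase whose end overlaps Snhg14, went from 1216 to 1909 CPM in excitatory neuron-like nuclei (log2 ratio 0.65), with 0.64 in inhibitory neuron-like, 0.64 in oligodendrocyte-like and 0.40 in microglia-like nuclei. Kcnq1, a potassium channel gene around Kcnq1ot1, went from 2.65 to 5.71 CPM in excitatory neuron-like nuclei (1.11). Gm26953, a noncoding gene across Miat, went from 4.85 to 12.3 CPM (1.34). Rtl1, an imprinted retrotransposon-derived gene that lies 3.6 kb from Rian on the other strand, went from 22.9 to 58.1 CPM in excitatory (1.35) and from 41.5 to 90.3 CPM in inhibitory neuron-like nuclei (1.12). The members beside them differed less or, as with Miat, in the other direction. Not all genes of the opposite strand were higher, since Snhg17, 14.1 kb from Snhg11, had a log2 ratio of -0.80 in excitatory neuron-like nuclei (170 and 137 UMIs). Cell Ranger counts by strand, and whether molecules primed on the opposite strand took part in these values was not tested.

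On the same strand, B830012L14Rik, 27.2 kb from Mirg, went from 250 to 268 CPM in excitatory neuron-like nuclei (log2 ratio 0.10), the same as Rian. Snrpn, 6.7 kb from Snhg14, had 0.19 in excitatory and 0.25 in inhibitory neuron-like nuclei. Gm38393 overlaps Snhg14 on its own strand, so UMIs of the overlap cannot be assigned to either.

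Genes whose pattern was most like that of each RNA were sought over 16 points, the 6 neuron subclasses, oligodendrocyte-like and microglia-like nuclei in both libraries, by Pearson's r of log2(CPM + 1) among 12071 genes. The points share 2 libraries, and the split between neurons and glia enters each value, so r is a description only. Rian was most like B830012L14Rik (0.997), its neighbour beyond Mirg, and Neat1 was most like Ppfibp2 and Trf (0.99 and 0.98), the latter a transferrin made by oligodendrocytes. Meg3 and Snhg11 had Scn1a, a neuronal sodium channel gene, in common as the most like (0.99 and 0.98). Malat1 and Miat had the weakest best matches, Prrt1 (0.94) and Slitrk1 (0.94). Mirg was most like Dzank1 (0.99), Snhg14 A330102I10Rik (0.99) and Kcnq1ot1 Gm10544 (0.99). Between members, r was 0.99 for Meg3 and Rian, 0.98 for Meg3 and Mirg and 0.50 for the adjacent Malat1 and Neat1.

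Proteins of the bodies that these RNAs build were taken from lists. Of 15 paraspeckle proteins, the partners of Neat1 such as Nono, Sfpq and Pspc1, none passed 1.5-fold in excitatory or inhibitory neuron-like nuclei, nor did any of the 14 that could be compared in oligodendrocyte-like nuclei, with median log2 ratios of -0.22, -0.26 and -0.19. In microglia-like nuclei 12 could be compared, Fam120a passed as higher (0.59) and Matr3 as lower (-0.62), and the median was 0.17. The background for each class is that given above. Of the 14 measured genes of speckle and splicing proteins, 5 were lower and none higher in each neuron class, with medians of -0.43 and -0.46 against -0.16 and -0.19 for all genes. Celf3, a neuronal splicing regulator, had the largest difference there (-1.49 and -1.33). In oligodendrocyte-like nuclei 4 of 13 were lower and none higher (median -0.36), led by Srsf7 (-1.03), and in microglia-like nuclei 2 of 13 were lower and 1, Srsf4, was higher. The lists were not set against genes of like length. Genes shorter than 10 kb had medians of -0.44 in excitatory and -0.59 in inhibitory neuron-like nuclei. Of these short genes, 39.2% and 50.4% were at least 1.5-fold lower, so no change particular to speckle genes is read from the list.

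Other long noncoding RNAs went both ways. Of all genes, 10.2% were at least 1.5-fold higher and 17.2% lower in excitatory and 5.66% and 17.3% in inhibitory neuron-like nuclei. The shares were 13.1% and 14.3% in oligodendrocyte-like and 15.5% and 9.89% in microglia-like nuclei. Beside these shares, the small counts that follow are not read as a result about the lists. Of 26 compared in excitatory neuron-like nuclei 2 were higher, led by Nron (log2 ratio 1.80), and 5 lower, led by Snhg12 (-1.19). Among inhibitory neuron-like nuclei 2 of 24 were higher and 5 lower, in oligodendrocyte-like nuclei 3 of 20 and 1, and in microglia-like nuclei 3 of 11 and none, led by Gm26917 (2.11). Of the imprinted genes beside the members, 3 of 9 were higher and 4 lower in excitatory neuron-like nuclei, with Rtl1 (1.35) and Dlk1 (-1.50), the growth regulator that names the Meg3 region, at the ends. The inhibitory class had 3 of 10 higher and 4 lower, with Kcnq1 and Magel2 (-1.19) at the ends, whereas 1 of 4, Ube3a, was higher in oligodendrocyte-like and 1 of 2, Cd81 (-0.64), lower in microglia-like nuclei. Of the genes that flank Malat1 and Neat1, 5 could be compared in excitatory neuron-like nuclei, all with negative ratios and 2 past 1.5-fold, from Frmd8 (-0.26) to Ehbp1l1 (-1.01). In inhibitory neuron-like nuclei 1 of 3 and in oligodendrocyte-like nuclei 1 of 2 were past 1.5-fold as lower. These flanking genes were not set against genes of like length. In excitatory neuron-like nuclei the median was -0.16 over all genes, -0.44 under 10 kb and -0.24 from 10 to 30 kb. The 10 neuron transcripts used above as a reference had a median of 0.06 in excitatory neuron-like nuclei, with only Nrgn past 1.5-fold (-0.63). Nrgn was also the only one past it in the other classes (-0.69, -0.95 and -1.46), where the medians were 0.04, -0.02 and -0.20.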

How the data were processed

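Nuclei of 1 Normal and 1 SAH library (10x Genomics 3′ chemistry), each pooled from 3 mice, were counted by the authors with Cell Ranger on mm10, intronic reads included. The version is 6.1.2 per the file headers and 5.0.0 in the submitters' processing notes. The deposited matrices hold UMI counts without normalization, with 114970719 and 172604358 UMIs in all.

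Nuclei with 300 to 7000 genes, under 10% mitochondrial, under 3% haemoglobin and under 100000 UMIs were kept (71 Normal and 29 SAH nuclei left out), and, for doublets, the nuclei with the largest Scrublet score were taken out, 0.8% for every 1000 nuclei within the limits (1178 and 2644). A class needed a summed marker share of at least 5 (neurons), 60 (oligodendrocyte) or 40 (microglia) UMIs per 10000 and no other class. The neuron classes also needed at least 3 marker UMIs and a share at least 4 times that of the other neuron list. Nuclei within 1.2-fold of the threshold numbered 794 and 1290 for excitatory, 513 and 744 for inhibitory, 11 and 53 for oligodendrocyte-like and 5 and 40 for microglia-like nuclei. Clusters came from scanpy on each library alone (2000 features, 25 components, 20 neighbours, resolution 1.2). CPM carry exact Poisson, shares exact binomial (Clopper-Pearson) and log2 ratios exact conditional binomial intervals. No p-value was computed, since nuclei of 1 library are not replicates. The scripts were tested on simulated data.

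Members, lists and alternatives were chosen with earlier results of these data known. Named genes were the 9 members, the highest and lowest ratio of each list, the 2 genes most like each member (Pearson's r of log2(CPM + 1), at least 1000 UMIs) and the genes that overlap a member or lie nearest to it. Reference transcripts of oligodendrocytes and neurons, leading genes of clusters and examples of list members fall outside that rule and were named after their values were seen. Qki, Norad, Cyrano and 1700020I14Rik of the lists were not among the symbols of the files. Gene positions, lengths and transcript ends came from GENCODE vM21 of GRCm38. The tools were scanpy 1.11.5, leidenalg 0.10.2, scikit-learn 1.9.0 and scipy 1.17.1 under Python 3.11.15.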

Additional observations from a re-analysis of the deposited data

How the results depend on the processing

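The alternatives were classes from clusters, a gate 2 times stricter or looser, no or stricter limits on nuclei, no removal of doublets, CPM without Malat1 or without the 9 RNAs and mitochondrial genes, ratios centred on all genes or on genes of like length, the mean share per nucleus, nuclei thinned to 1000 UMIs, and no minimum of UMIs. Malat1 and Miat stayed negative and Kcnq1ot1 positive in the 4 classes under all 13, but thinning to 500 UMIs, which is not among them, put Miat at -0.00 in oligodendrocyte-like nuclei. The setting with no minimum changes only which members are counted and leaves every ratio as reported. The count of members past 1.5-fold moved as follows. The share of all genes past 1.5-fold was not computed under these alternatives, so the moves are not read as particular to the members. The inhibitory class had 1 lower, from 0, with classes from clusters, stricter limits, both other CPM and the mean share (Malat1) and with thinning (Mirg), and 3 were lower with the stricter gate (Malat1, Miat and Mirg). Without removal of doublets, with or without limits, 1 was higher in both neuron classes (Neat1) and 2 were lower in oligodendrocyte-like nuclei, as also after thinning (Malat1 and Miat). Among inhibitory neurons 1 was higher with no minimum (Neat1) and 1 when centred on all genes (Kcnq1ot1). In excitatory neuron-like nuclei 0 were lower under both centrings and 2 with the mean share. Centring on genes of like length left 0 lower in oligodendrocyte-like and microglia-like nuclei. In microglia-like nuclei 2 were lower when centred on all genes, with the mean share and with no minimum, and 0 after thinning, where Malat1 stood at -0.58. The mean share made 1 higher in oligodendrocyte-like nuclei (Kcnq1ot1). The causes were not tested.

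With a minimum of 1000 UMIs, which leaves fewer genes, the lists gave 1 higher and 3 lower of the other noncoding RNAs, 1 lower imprinted gene and 1 lower neighbour of Malat1 in excitatory neuron-like nuclei. The same minimum gave, in the inhibitory class, 1 higher and 2 lower other noncoding RNAs, 0 lower imprinted genes and 0 lower neuron transcripts. In oligodendrocyte-like nuclei it gave 0 lower neuron transcripts, and in microglia-like nuclei 0 paraspeckle genes in either direction, 0 higher and 1 lower splicing genes, 1 higher other noncoding RNA and 0 lower neuron transcripts. With a minimum of 50 UMIs, 8 other noncoding RNAs and 2 neighbours were lower in inhibitory neuron-like nuclei, 2 imprinted genes were higher and 2 lower in oligodendrocyte-like nuclei, and 3 other noncoding RNAs and 2 imprinted genes were lower in microglia-like nuclei. For the inhibitory class, thinning to 500 in place of 1000 UMIs moved the SAH over Normal ratio of the share with a Neat1 UMI from 2.44 to 0.733 and that for Kcnq1ot1 from 1.23 to 1.34.

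No paired analysis was possible because each group has 1 library. Depth limits Neat1 in neurons, Mirg and Miat in glia and all values of the rare classes.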

Other observations

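Among the smallest clusters, 37 Normal nuclei led by Sema3d, most without a class, had Kcnq1ot1 at 2004 CPM, against 1004 CPM or less in the other clusters of that library. Neat1 was at 0 UMIs there. The highest Malat1 share of the neuronal clusters was 9.20% of UMIs in a Normal cluster of 124 nuclei led by Ccbe1 and Dpf3. Opalin-led nuclei of the SAH library, 142 in all, had the highest Malat1 share of that library (9.11%) beside the low Neat1 given in the report. These clusters were picked out after their values were seen, and no explanation was tested.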
